A study of Rattus norvegicus with 24 samples.

Results

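A set of 150 probes that read lower in the hypothalamus of 21-day-old rats than at any later stage was drawn from a table of 22523 probes measured on Illumina bead arrays, 1 array per rat. They were chosen by their measured values: on the log2 scale of the authors' processed intensity, the early juvenile mean had to lie farther from the mean of the other 4 stage means than any other stage's mean did, and below it, and the 150 lowest such differences were taken. Eligible probes, 9698 in number, were those whose detection p-value was below 0.05 on each of the 5 late proestrus arrays. Of these, 1352 had the required shape and 1333 had the mirror shape, high in early juvenile rats. The early juvenile difference therefore defines the set and is described below without a test.

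The Sprague Dawley rats were early juvenile (21 days, 5 arrays), juvenile (26 days, 5 arrays), late juvenile (29 days, 5 arrays), in early proestrus before ovulation (labelled 29, 30, 31 and 32 days, 4 arrays) or in late proestrus, the day when they first ovulate (31 days, 5 arrays). No group carried an allele or received an agent according to the labels, and the RNA was that of the whole dissected hypothalamus. In such tissue, fewer cells of a type and less RNA per cell cannot be told apart. Juvenile replicate 4 and early proestrus replicate 2 detected few probes and were left out, so the values below come from 22 arrays with 4 juvenile and 3 early proestrus rats. Nothing in the labels says more about how the rats were assigned, and the early juvenile rats carry animal numbers 164 to 168, far from those of the other stages, so age and anything peculiar to that series of animals cannot be told apart.

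The hypothalamus holds the neurons that release gonadotropin-releasing hormone, and a rise in their pulsatile release sets off puberty, which in the rat ends in the first proestrus and ovulation. The days after weaning are also a time when glia and neurons of this region mature. None of the probes can be assigned to such a process here. The files do not pair the identifiers with genes, and 0 of the probe and target identifiers occurred in the rat gene table of assembly GRCr8. Transcripts are therefore given by probe identifier, limited to those a result turns on, and no tissue marker could be examined.

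The 22 arrays detected between 45.5% and 51.7% of all probes, with mean raw intensities from 513.7 to 1025. The number of arrays limits the precision. At least 149 of the 150 probes were detected on each of these arrays, and 149 were detected on all 22. Unless another scale is named, levels are log2 intensities after background correction and quantile normalization (neqc), and differences are on that log2 scale. All 150 probes passed the filter on dim probes, which asked for detection by 4 or more arrays and which the requirement for late proestrus already met.

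At day 21 most of the set lay on average only a little below the mean of its later stages. On the authors' scale the early juvenile difference ran from -1.36 to -0.31 with a median of -0.39, which corresponds to levels 2.57-fold, 1.24-fold and 1.31-fold lower. Only 2 probes had a difference of -1 or below and 29 one of -0.5 or below. The last probe inside the set stood at -0.310 and the first outside at -0.3096, so the limit falls in a continuous series. After background correction the differences ran from -1.68 to -0.32 with a median of -0.49. They were below 0 for all 150 also when arrays were scaled to a common median instead (median -0.37, where the median of all probes moved to 0.07), without background correction (median -0.39) and against the later stages without the late juvenile one (median -0.50). The choice of the probes favours this outcome.

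**Figure D1:**
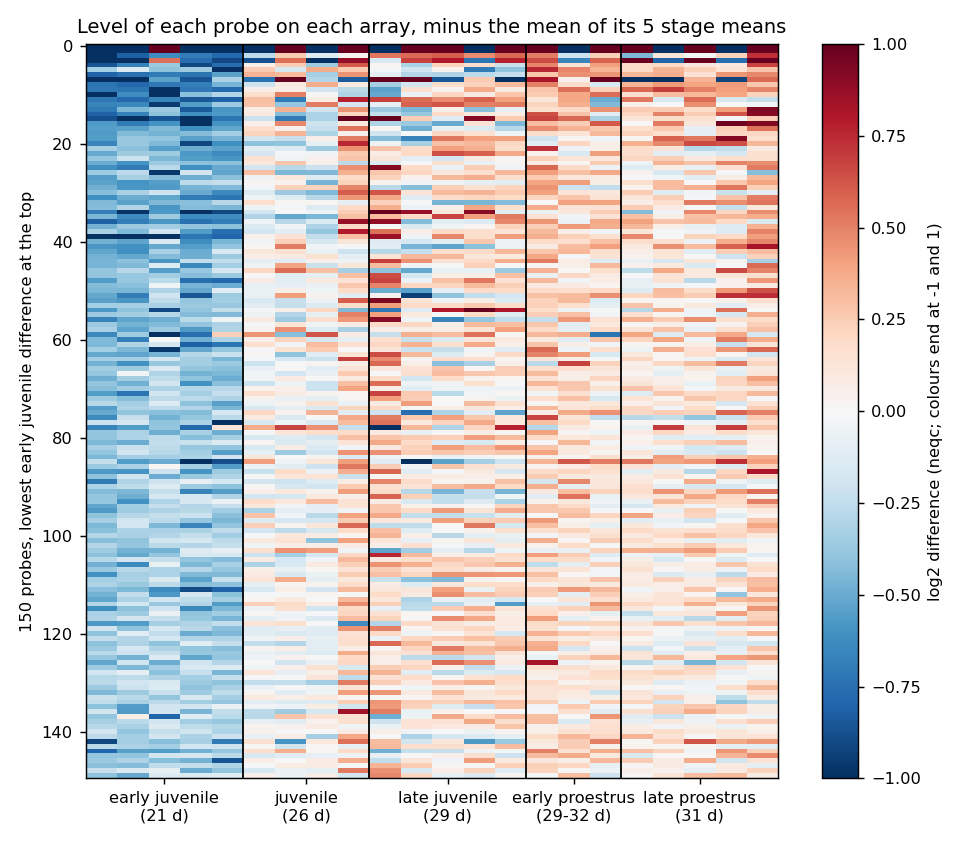
Level of the 150 probes (rows, lowest early juvenile difference at the top) on 22 arrays (columns, by stage), as log2 difference from the mean of each probe's 5 stage means. The 5 early juvenile columns are blue for nearly all rows, which the choice of the probes favours. The top rows also change colour between arrays of a stage.

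The low level was found on each of the 5 early juvenile arrays, whose mean chose the probes. Set against the mean of its own 5 stage means, the median probe was at -0.43, -0.39, -0.32, -0.40 and -0.39 on early juvenile replicates 1 to 5. It was at -0.02, -0.01, -0.07 and 0.19 on juvenile replicates 1, 2, 3 and 5. Late juvenile rats read 0.15, 0.05, 0.07, 0.14 and 0.10. Early proestrus replicates 1, 3 and 4, aged 29, 31 and 32 days, read 0.22, 0.13 and 0.12, and late proestrus rats 0.10, 0.10, 0.09, 0.12 and 0.22. All 5 early juvenile medians thus lay below all 17 later ones, a separation that the choice of the probes on these same arrays favoured in advance. Of the 4 juvenile medians, 3 lay below all 13 of the 3 following stages.

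**Figure D2:**
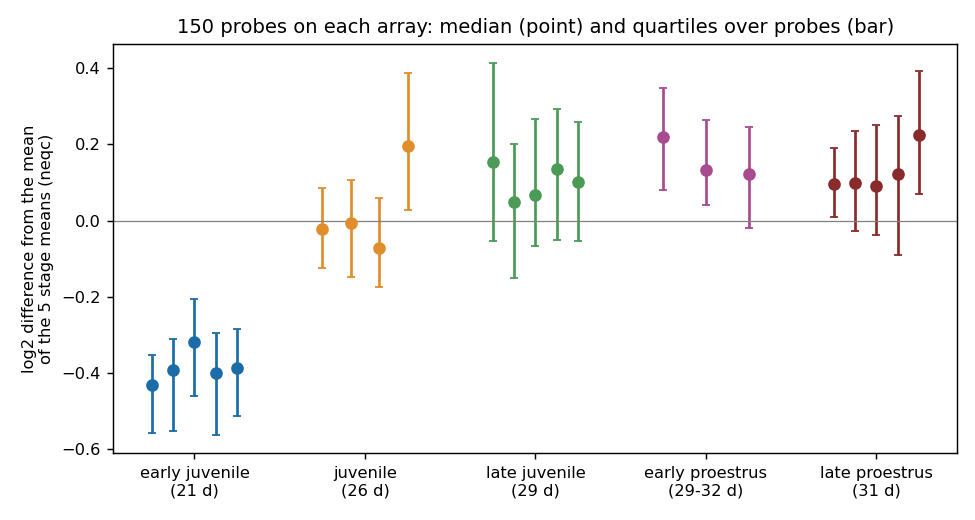
Median over the 150 probes on each array (points, in order of replicate within a stage) with the quartiles over probes (bars), as log2 difference from the mean of each probe's 5 stage means. Early juvenile points lie between -0.43 and -0.32, a low position that the choice of the probes favours, and the later ones between -0.07 and 0.22.

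Single probes overlapped more than the medians. For 52 of the 150 probes all 5 early juvenile arrays lay below all 17 later arrays on the authors' scale, and the same 52 did so after background correction. Among the 9698 eligible probes 1.13% had this property, a share that the choice of the set does not allow to be compared. All early juvenile arrays lay below the 4 juvenile arrays for 90 probes, below the 5 late juvenile arrays for 98, below the 3 early proestrus arrays for 136 and below the 5 late proestrus arrays for 112. These counts rest on the values that chose the set and were not taken over other probes. They also reflect the number of arrays in each stage, and nothing is read from them.

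The 2 probes with the lowest early juvenile difference did not read evenly low at day 21. ILMN_1365113 was at 8.30, 7.85, 11.69, 9.20 and 8.43 in early juvenile rats and at 9.20, 11.84, 8.27 and 12.15 in juvenile rats. It was at 9.04, 11.83, 12.00, 9.11 and 11.85 in late juvenile rats, at 11.84, 8.65 and 11.87 in early proestrus, and at 12.60, 8.61, 12.46, 8.53 and 12.89 in late proestrus. Every stage held arrays at both levels, and no value fell between 9.20 and 11.69. High arrays numbered 1 of 5 in early juvenile rats, 2 of 4 in juvenile rats, 3 of 5 in late juvenile rats, 2 of 3 in early proestrus and 3 of 5 in late proestrus. The low early juvenile mean of 9.10 ± 1.53 (SD, n = 5), against 11.02 ± 2.24 (SD, n = 5) in late proestrus, thus came with 4 of 5 arrays at the lower level, which other stages also reached.

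ILMN_2038795, second in the set, divided the 22 rats into the same 11 low and 11 high arrays, with no value between 8.45 and 11.24. In early juvenile rats it was at 7.29, 6.79, 11.27, 8.45 and 7.76. ILMN_2038796 (early juvenile difference -0.87), a probe for the same target, made the same division with a smaller gap, from 11.59 to 12.29. Over 22 arrays ILMN_2038795 and ILMN_1365113 correlated at 0.997, a description that goes with their shared division into low and high arrays. It was not tested, and the arrays also differ in stage and brightness. Among 12435 other probes tested, 3 separated these 11 arrays from the rest with ILMN_1365113, all in the same direction, and 2 of the 3 are the set's own ILMN_2038795 and ILMN_2038796. A gap of over 1 log2 unit with at least 3 arrays on each side occurred for 2 of the 150 probes and for 0.265% of all probes tested. A choice by the size of a mean difference favours such probes, so nothing is read from these 2 shares.

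ILMN_1359649 was spread in another way. Its early juvenile arrays lay between 7.68 and 8.63, while it reached 11.35 on juvenile replicate 2, 11.28 and 10.90 on late juvenile replicates 2 and 1, and 10.28 on early proestrus replicate 4. The remaining juvenile arrays lay between 8.12 and 8.66, inside or just above the early juvenile range, and late proestrus arrays fell between 7.60 and 9.51. Of the 150 probes, 6 had a within-stage SD over 0.5 among the later stages, against 1.42% of all probes tested, and the 4 just named are the 4 with the largest. The choice by large mean differences favours probes with a large spread, so nothing is read from this count. Over the whole set the median within-stage SD in the later stages was 0.197, the same as for the eligible probes.

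**Figure D3:**
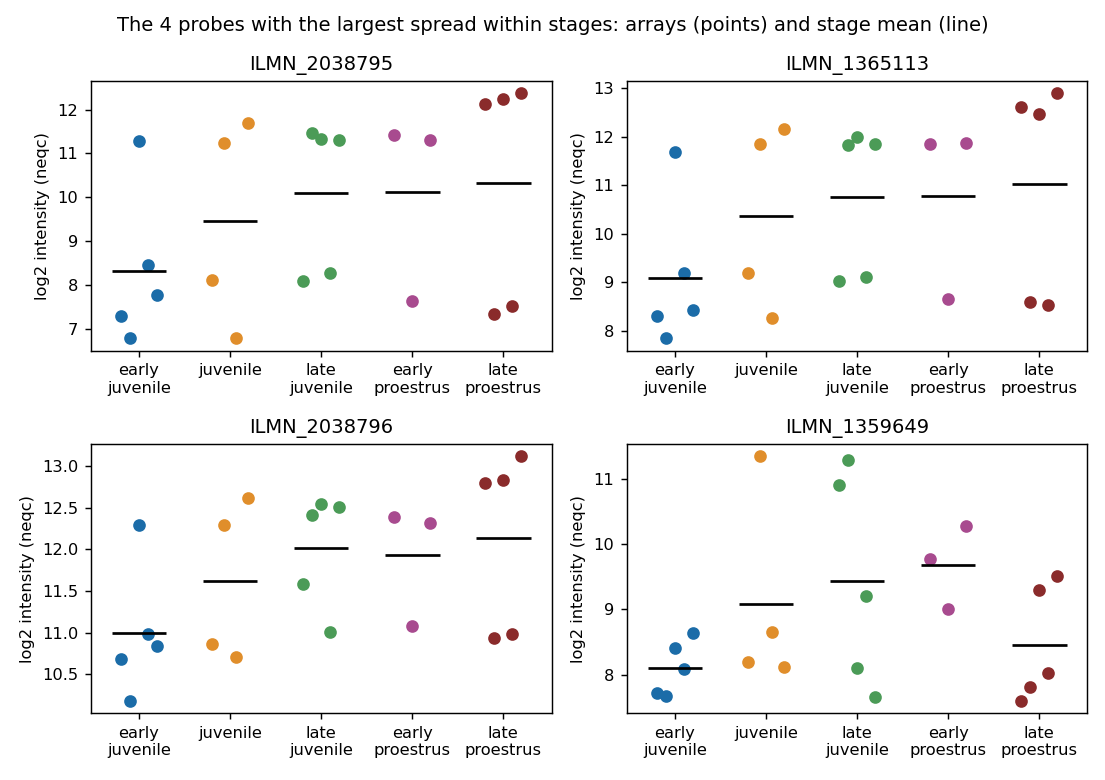
Log2 intensity of the 4 probes with the largest spread within stages, by stage (points, arrays; lines, stage means). ILMN_2038795, ILMN_1365113 and ILMN_2038796 show a lower and an upper group of arrays in every stage, with 1 of 5 early juvenile arrays in the upper one.

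The lowest difference among probes whose early juvenile arrays all lay below the rest was that of ILMN_1371606. It was at 9.51, 9.91, 10.10, 10.03 and 9.95 in early juvenile rats, at 10.46, 10.99, 10.60 and 10.76 in juvenile rats and at 11.27, 11.29, 11.33, 11.20 and 11.30 in late juvenile rats. In early proestrus it was at 11.24, 10.51 and 10.97, and in late proestrus at 10.28, 10.85, 10.72, 10.96 and 11.46. The late juvenile rats were thus highest on average and the most alike (11.28 ± 0.05, SD, n = 5), although late proestrus replicate 5 read higher than any of them. Both proestrus stages overlapped the juvenile range.

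ILMN_1376423, one of the brighter probes of the set, stood at 12.02 ± 0.21 (SD, n = 5) in early juvenile rats, at 12.88 ± 0.40 (SD, n = 4) in juvenile rats and at means of 12.72, 13.09 and 13.00 in the following stages. Its highest early juvenile array, at 12.37, lay just below its lowest juvenile array, at 12.39. ILMN_1353374 stood at 10.42 ± 0.10 (SD, n = 5) in early juvenile rats, where the arrays ran from 10.31 to 10.58. It was at 11.47, 11.44, 10.79 and 11.57 in juvenile rats, at 11.03, 10.83, 10.82, 10.86 and 10.89 in late juvenile rats, between 11.40 and 11.58 in early proestrus and between 11.27 and 11.60 in late proestrus. Late juvenile rats were intermediate for this probe, above every early juvenile rat and below every proestrus rat. These 3 probes were chosen after their values were seen.

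The median difference over the 150 probes was 0.41 from early juvenile to juvenile rats, 0.49 to late juvenile rats, 0.53 to early proestrus and 0.50 to late proestrus. As a description, juvenile rats had covered a median of 84.9% of the difference between early juvenile and late proestrus rats, with quartiles at 67.9% and 97.1%. At least 50% was covered for 146 of the 150 probes, at least 75% for 95 and at least 100% for 33. The lowest share was 36.9%, for ILMN_1358226, and the highest, 285% for ILMN_1359649, goes with its single juvenile array at 11.35. These shares rest on the early juvenile means that chose the probes, and a probe whose juvenile mean stayed low was less likely to be taken, so high shares were favoured in advance and nothing is read from them. Means increased in the order of the stages for 13 probes, and the highest mean was that of late juvenile rats for 58 probes, late proestrus for 50, early proestrus for 40 and juvenile rats for 2. These counts rest on the stage means that the rule used and were not taken over other probes, so nothing is read from them either.

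Changes of the set after day 26 are not independent of its choice. The rule used the means of all 5 stages and allowed no later stage to stand farther from the others than the early juvenile one. It also asked for detection on the late proestrus arrays. Probes with large differences among the later stages were thus less likely to be taken, and the tests below describe the set within that limit. A moderated F test of limma over the 4 later stages called 25 of the 150 probes (16.7%) at an adjusted p under 0.05, and 13.5% of the 12436 probes tested. The 12436 include dim probes that could not enter the set. Of the 9698 eligible probes 1545 were called. With detection p under 0.01 on every array the shares were 20.3% of the set and 20.4% of all probes. The count of members depended on single rats, as did that of all probes. Without juvenile replicate 5 it was 44 (29.3%), with 19.6% of all probes called, and without late juvenile replicate 5 it was 15 (10%), with 9.8% of all probes called.

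Between juvenile and late proestrus rats, the ends of the later span, limma called 0 of the 150 probes, and 0.0161% of all probes tested. At an unadjusted p under 0.05 there were 15 of the 150 and 688 of 12436. The median difference was 0.09 over the 150 probes and 0.00 over all probes, and 117 of the 150 were above 0 against 50.1% of all probes. Without juvenile replicate 5, whose median lay above those of the other juvenile rats, 1 of the 150 was called, and 3 of all probes. From early to late proestrus limma called 0 of the 150 and 0.00804% of all probes, with 7 and 513 at an unadjusted p under 0.05, and the median difference over the 150 was -0.03. The median standard error over all probes was 0.143 for the difference between juvenile and late proestrus rats and 0.156 for that between the proestrus stages. Median scaling moved the median of all probes by 0.10 in the first of them and called 0 of the 150 in either.

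The other calls came from comparisons with late juvenile rats. Their arrays were the dimmest of all stages, with mean raw intensities that averaged 705. The averages were 876 in early juvenile rats, 835 in juvenile rats, 865 in early proestrus and 907 in late proestrus. Stage and brightness can therefore not be fully told apart in these comparisons. Calls with brightness as a covariate are given further below. From juvenile to late juvenile rats limma called 18 of the 150 probes, 10 higher and 8 lower. That is a share of 12% where 13% of all probes were called (6.52% higher, 6.49% lower). Of the 9698 eligible probes 1485 were called, 720 higher and 765 lower. ILMN_1358226 rose by 0.66 (SE 0.13, limma adjusted p = 0.00250), from 8.66, 8.45, 8.51 and 9.27 to 9.28, 9.16, 9.64, 9.37 and 9.48. All late juvenile arrays but 1 lay above the highest juvenile array, replicate 5, and all lay above the other 3 juvenile arrays. ILMN_1371606 rose by 0.57 (SE 0.18, limma adjusted p = 0.0395), and leaving out any 1 of 6 arrays raised its adjusted p above 0.05, to at most 0.130.

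Falls in the same step were those of ILMN_1354667 and ILMN_1367486. ILMN_1354667, a dim probe detected on 4 of 5 early juvenile arrays, went from 7.49, 7.01, 7.18 and 7.48 to 6.96, 6.01, 6.53, 6.74 and 6.86, a difference of -0.67 (SE 0.22, limma adjusted p = 0.0469). Its adjusted p exceeded 0.05 when any 1 of 17 arrays was dropped (up to 0.131), and its difference was -0.26 with the authors' processed values. ILMN_1367486 went from 11.26, 11.54, 11.50 and 11.06 to 10.56, 10.74, 11.00, 10.80 and 11.04, a difference of -0.51 (SE 0.13, limma adjusted p = 0.00924), and kept the call without each array in turn. Its juvenile and late juvenile arrays did not overlap, though the lowest of the former, at 11.06, was close to the highest of the latter, at 11.04. The number of calls rested on few rats: it was 7 without juvenile replicate 1, 7 without juvenile replicate 2, 10 without late juvenile replicate 2 and 36 without juvenile replicate 5. In the same fits 1046, 1115, 1242 and 2443 of all probes were called. The members' shares were 4.67%, 4.67%, 6.67% and 24%, where 8.45%, 9.0%, 10.01% and 19.7% of all probes were called. Median scaling, which moved the median of all probes to -0.17, gave 0 higher and 24 lower among the 150, and 244 higher and 1421 lower over all probes. With it the difference was 0.40 for ILMN_1358226 (limma adjusted p = 0.0519) and 0.26 for ILMN_1371606 (limma adjusted p = 0.355), so both calls ended.

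From late juvenile rats to early proestrus 9 of the 150 probes were called, 9 higher and 0 lower. That is a share of 6% where 6.04% of all probes were called (3.2% higher, 2.84% lower). Of the 9698 eligible probes 698 were called, 381 higher and 317 lower. ILMN_1354667 rose by 0.93 (SE 0.24, limma adjusted p = 0.0225) to 7.40, 7.68 and 7.58, back to about its juvenile level, and by 0.39 with the authors' processed values. ILMN_1363160 rose by 0.69 (SE 0.19, limma adjusted p = 0.0335), from 8.66, 7.68, 8.22, 8.37 and 8.45 to 8.91, 8.93 and 9.07. The groups did not overlap for either probe. Dropping 1 array ended the call in 3 cases for ILMN_1354667 (adjusted p of up to 0.114) and in 5 for ILMN_1363160 (up to 0.148). The count fell to 3 without late juvenile replicate 2, to 5 without late juvenile replicate 3, to 3 without early proestrus replicate 3 and to 1 without early proestrus replicate 4, and either of these last omissions left 2 early proestrus rats. Over all probes these 4 fits called 533, 671, 284 and 299. Under median scaling all probes together had a median of 0.23, with 40 higher and 0 lower (1156 and 103 over all probes).

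**Figure D4:**
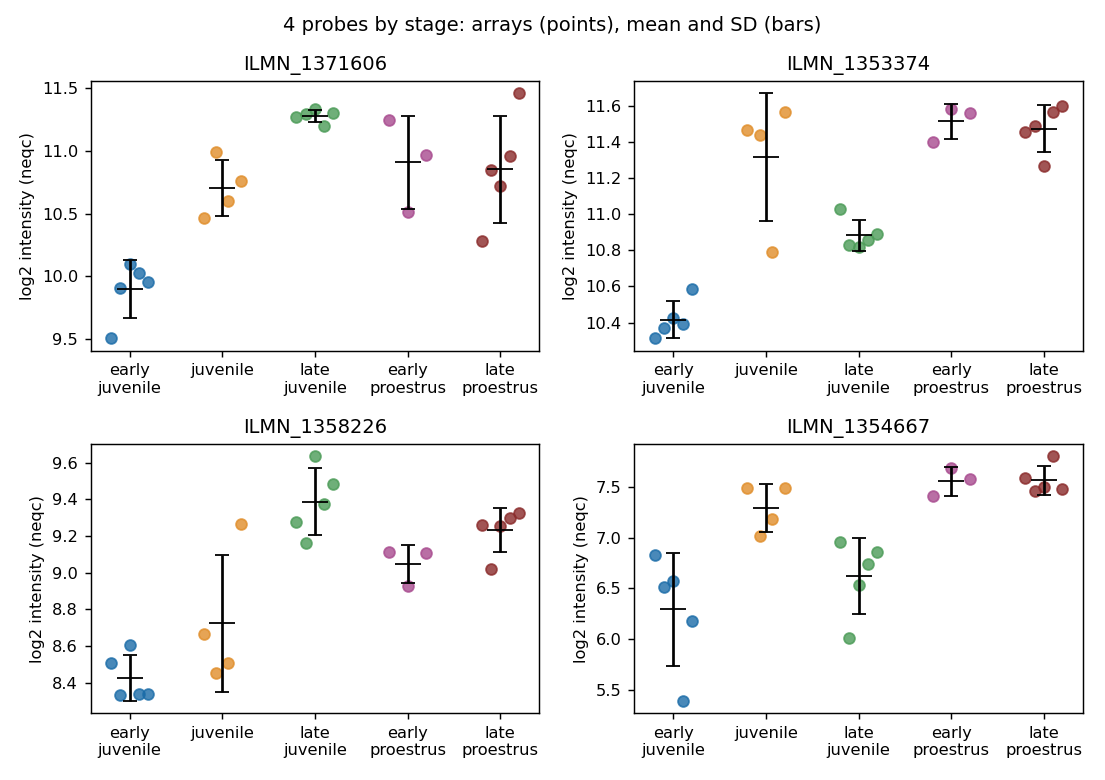
Log2 intensity by stage for 4 probes of the set (points, arrays; bars, mean and SD). ILMN_1371606 and ILMN_1358226 are highest in late juvenile rats (means 11.28 and 9.39), while ILMN_1353374 and ILMN_1354667 are lower there (10.88 and 6.62) than in juvenile and proestrus rats.

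Between late juvenile and late proestrus rats, with 5 arrays each, 40 of the 150 probes were called, 25 higher and 15 lower in late proestrus. That is 26.7% of the set where 21.1% of all probes were called (10.9% higher, 10.2% lower). Of the 9698 eligible probes 2347 were called, 1257 higher and 1090 lower. With detection p under 0.01 on every array the shares were 28.4% of the set and 29.1% of all probes. ILMN_1354667 rose by 0.94 (SE 0.21, limma adjusted p = 0.00299) to between 7.46 and 7.80. ILMN_1376935 rose by 0.80 (SE 0.18, limma adjusted p = 0.00341), from 8.41, 8.35, 8.21, 8.85 and 8.27 to 8.72, 9.23, 8.82, 9.68 and 9.64, with late juvenile replicate 4 inside the range of late proestrus. The difference of ILMN_1354667 was 0.39 with the authors' processed values.

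ILMN_1650700 fell by 0.49 (SE 0.15, limma adjusted p = 0.0242), from 9.91, 9.64, 9.80, 9.66 and 9.49 to 9.10, 9.15, 8.99, 9.17 and 9.64, so that late proestrus replicate 5 overlapped with late juvenile rats. In late proestrus its other 4 arrays were close to the early juvenile range of 8.74 to 9.16. ILMN_1352485 fell by 0.45 (SE 0.15, limma adjusted p = 0.0378), from a mean of 9.58 to 9.13, where the early juvenile mean was 8.97. Leaving out 1 array ended the call for 3 arrays in ILMN_1650700 (adjusted p of up to 0.0650) and for 6 in ILMN_1352485 (up to 0.104). This comparison shares its late juvenile arrays with the 2 before it. Median scaling moved the median of all probes to 0.27 and gave 83 higher and 0 lower (4450 and 412 over all probes). The differences were then -0.08 for ILMN_1650700 and -0.05 for ILMN_1352485, with limma adjusted p-values of 0.653 and 0.823. The split into rises and falls therefore depends on the scaling.

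Array brightness moved with the level of the set among later arrays. Centred within stages, the median of the 150 probes and the log2 mean raw intensity correlated with Pearson's r of -0.926 (permutation p = 0.00052, adjusted 0.00416) and Spearman's rho of -0.757 (permutation p = 0.00302, adjusted 0.0121) over 17 arrays. Without centring, r was -0.537 (permutation p = 0.0261, adjusted 0.0348) and rho -0.549 (permutation p = 0.0250, adjusted 0.0348). Without the 2 arrays farthest from the median brightness the uncentred r was -0.443 (permutation p = 0.0996, adjusted 0.114) and rho -0.40 (permutation p = 0.142, adjusted 0.142) over 15 arrays. Centred within stages and without the same 2 arrays, r was -0.796 (permutation p = 0.00988, adjusted 0.0263) and rho -0.646 (permutation p = 0.0200, adjusted 0.0348). These 8 two-sided values form 1 family, chosen after the data were seen, with 100000 permutations each. The values of the later arrays also took part in the choice of the probes, and the dimmest arrays were all later ones. Probes that read high on dim later arrays were thus more likely to be taken. A negative relation was favoured in advance, so nothing is read from these p-values. Of the 150 probes, 61 (40.7%) had a within-stage r under -0.5 with brightness, against 16.6% of the eligible probes, while 5 (3.33%) had one over 0.5, against 17.2%. The choice of the probes favoured the negative sign here too. The set also had higher levels than the eligible probes (medians of 10.21 and 8.53), so nothing is read from these shares.

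The mean raw intensities of the early juvenile arrays ran from 835.9 to 1000.2, and the 6 later arrays inside that range had set medians between -0.02 and 0.13. With brightness as a covariate the median early juvenile difference was -0.46 in place of -0.49, and it was -0.47 without the 2 dimmest arrays, juvenile replicate 5 and late juvenile replicate 1. The choice of the probes by that difference favours values below 0 in all these settings, so they do not bear on the part of brightness in it, which was not tested. Between later stages the covariate gave 20 calls in place of 18 from juvenile to late juvenile rats, 8 higher and 12 lower, with 861 higher and 756 lower over all probes. From late juvenile rats to late proestrus it gave 33 in place of 40, 28 higher and 5 lower, with 1145 higher and 1223 lower over all probes, and the calls of ILMN_1650700 (limma adjusted p = 0.205) and ILMN_1352485 (0.184) ended.

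**Figure D5:**
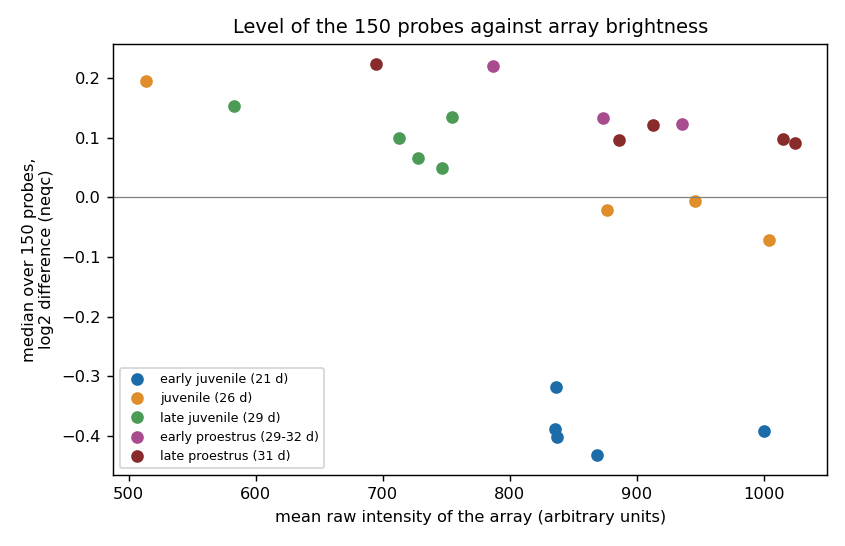
Median over the 150 probes on each array (log2 difference from the mean of the stage means) against the mean raw intensity of that array (arbitrary units), by stage. Early juvenile arrays lie between -0.43 and -0.32 at 835.9 to 1000.2, a low position that the choice of the probes fixes, and the dimmest juvenile array, at 513.7, lies at 0.19.

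The probes were bright as a set. Their levels averaged over stages ran from 7.07 to 14.17 with a median of 10.21, against 7.69 over all probes tested and 8.53 over the eligible ones, and 96% lay above the median of all probes. The rule was applied to values without background correction. Applied to background-corrected ones, it kept 84 of the 150.

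The 150 probes belong to 148 targets, and 5 further probes read 5 of these targets. Both targets with 2 probes in the set had the same direction by the rule, ILMN_2038795 and ILMN_2038796 on one target and a second pair at -0.39 and -0.32 on the other. Of the 5 further probes, 3 were detected on 0 of 22 arrays. The 2 that were detected on all 22 had early juvenile differences of -0.26, where its partner in the set stood at -0.43, and of -0.00, where the partner stood at -0.53. The last pair thus disagreed, and the files do not say which parts of the transcript its 2 probes read.

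The 2 arrays left out took no part in the choice of the probes. Juvenile replicate 4 detected 97 of the 150 (64.7%) and 19.5% of all probes, and early proestrus replicate 2 detected 8 of the 150 (5.33%) and 6.33% of all probes. Their signal was too low to be placed beside the other arrays. Applying the rule without each of the 22 arrays in turn kept between 134 and 148 of the 150, and 89 were taken every time. Without the late juvenile arrays it kept 108.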

How the data were processed

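RNA of 24 hypothalami was measured on Illumina bead arrays, 1 per rat. Per the file headers, the deposited raw intensity was not normalized, and a detection p-value stands beside each value in the authors' table. The authors' processed intensity, deposited separately, is on a linear scale and quantile normalized by its values. The software behind it is not stated. The rule for the 150 probes used log2 of these processed values on 22 arrays. Raw intensities of the same arrays were processed with neqc (limma 3.58.1, R 4.3.3, background from detection p-values, offset 16), and the 12436 probes that 4 or more arrays detected (p-value below 0.05) were kept. lmFit and eBayes gave 1 mean per stage, and p-values were adjusted over all 12436 probes by the Benjamini-Hochberg method at 0.05. Slide and scan date are not in the labels, and nothing there says that rats came from separate litters, so p-values measure the spread between these samples. The fit was tested on simulated data, with 200 of 12436 probes changed 2-fold in 10 draws per comparison. It recovered 86.8% to 93.8% of them, and 5.26% to 5.85% of the calls were false. The noise was normal and independent between arrays and probes. The largest difference called among the 150, 0.94, was smaller than the simulated one, so recovery of differences of that size was not tested. The probes, lists and tests were chosen with earlier results of these data known. Replicates are numbered in accession order within a stage. Gene lists and markers were not analysed here, for want of gene names. By the naming rule for such a case, at most 2 rises and 2 falls were named per tested comparison, besides probes singled out for the lowest early juvenile difference or the largest spread. Alternatives were other scalings, filters, sets of arrays and each array left out.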

Additional observations from a re-analysis of the deposited data

Results flagged for a closer look

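Within stages of 4 or 5 arrays, the extremes were compared with the remaining arrays, for the median of the 150 probes and for each named probe. An array stood far apart in 6 of 60 cases. Some of these probes were named for their large spread or difference, and the cases share arrays. The count is therefore not set against a rate by chance. The median of the 150 probes was 0.22 in late proestrus replicate 5, the dimmest array of its stage, against 0.10 ± 0.01 (SD, n = 4). In the same array ILMN_1376423 was at 13.42 against 12.89 ± 0.05 (SD, n = 4) and ILMN_1650700 at 9.64 against 9.10 ± 0.08 (SD, n = 4). ILMN_1353374 was at 10.79 in juvenile replicate 3 against 11.49 ± 0.07 (SD, n = 3), and ILMN_1359649 at 11.35 in juvenile replicate 2 against 8.33 ± 0.29 (SD, n = 3). ILMN_1358226 was at 9.02 in late proestrus replicate 2 against 9.28 ± 0.03 (SD, n = 4).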

How the results depend on the processing

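Calls among the 150 probes numbered 25 for any later difference (test A), 18 from juvenile to late juvenile (B), 9 from late juvenile to early proestrus (C), 0 from early to late proestrus (D), 0 from juvenile to late proestrus (E) and 40 from late juvenile to late proestrus (F). Of 200 recomputed counts, 172 stayed within 1.5 times. Median scaling gave 64 in A, 40 in C and 83 in F. All 24 arrays gave 0 in each, and array weights on them gave 57 in A, 41 in B, 21 in C and 4 in E. Only the later stages gave 11 in B and 5 in C. Without the 2 dimmest arrays there were 52 in A, 35 in B and 2 in E. Brightness as a covariate, added after seeing the data, gave 14 in C. Leaving out 1 array gave 15 to 44 in A, 7 to 36 in B, 1 to 11 in C, 0 in D, 0 to 1 in E and 27 to 44 in F. Over all probes these fits gave 1201 to 2424 in A, 1046 to 2443 in B and 284 to 1003 in C. They gave 1 in D, 2 to 3 in E and 1996 to 3263 in F. Of counts over all probes, 177 of 200 stayed within 1.5 times. On all 24 arrays 1682 (A), 1618 (B), 751 (C) and 2621 (F) became 17, 32, 17 and 22. With median scaling A, C and F became 2970, 1259 and 4862. With array weights A, B, C, E and F became 3490, 2878, 1992, 17 and 4171. Only the later stages gave 1263 in B and 490 in C, and without the 2 dimmest arrays A was 2986, B 2587, C 1301 and E 5. Of 327 recomputed differences of named probes, 64 no longer passed, and ILMN_1363160 in early proestrus against late juvenile turned to -0.10 on 24 arrays. The rule kept 84 of 150 probes on neqc values and 134 to 148 without 1 array. No paired analysis was possible because the labels number every rat differently. Signal over background limits dim probes. The cause of these changes was not tested.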
